A study of Mus musculus with 18 samples.

Results

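The genes described here encode mitochondrial ribosomal proteins, identified as array probe sets annotated to a single gene whose symbol is Mrpl or Mrps followed by a digit. The array held 74 such genes among 12394 genes with a 1-gene probe set: 47 with an Mrpl (large subunit) and 27 with an Mrps (small subunit) symbol. Each gene was read from the probe set with its highest mean signal, and 33 genes had several probe sets. All 74 passed the filter for low signal. Expression was measured on 18 Affymetrix arrays of mouse dendritic cells grown from bone marrow with the supernatant of B16 tumour cells carrying a GM-CSF transgene, and used when above 90% of cells carried CD11c. Wild-type cells were C57BL/6 and received LPS, the endotoxin of Gram-negative bacteria, at 1 µg/ml. A second set of C57BL/6 cells received the same LPS together with 2 mM EGTA, a chelator of extracellular calcium. The third set came from Cd14-/- C57BL/6 mice, which lack the LPS co-receptor CD14, and received LPS at a dose the labels do not give. Mice were 6 to 8 weeks old. Each condition had 1 array without LPS and 1 array at each of 2, 4, 6, 12 and 24 h of LPS. Unstimulated cells were harvested 24 h after plating, so only the 24 h comparison is matched for time in culture. The unstimulated array of the EGTA set names EGTA in its title alone. No condition and time was repeated.

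The mitochondrial ribosome sits in the mitochondrial matrix and translates the few messenger RNAs of the mitochondrial genome, all of which encode subunits of the respiratory chain and ATP synthase. Its RNA comes from mitochondrial DNA, whereas its proteins are encoded in the nucleus, made in the cytosol and imported. Some are homologues of bacterial ribosomal proteins and others exist in mitochondria alone. LPS acts on dendritic cells through TLR4 with the help of CD14, and activated dendritic cells of this kind are known to shift from oxidative phosphorylation towards glycolysis.

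The Cd14 transcript was 12.49 to 13.28 on the log2 scale on the 12 arrays of wild-type and EGTA-treated cells and 4.28 to 5.83 on the 6 arrays labelled CD14-deficient. Of 12 dendritic cell markers, 9 exceeded the array's median gene on all LPS arrays in each condition, whereas markers of T and NK cells, B cells, erythroid cells and B16 cells were below it on all LPS arrays. Granulocyte markers were present (summed deposited intensity 15950 to 35680 over the wild-type LPS arrays and 42190 without LPS), as were all 11 macrophage markers. RNA integrity numbers were 8.8 and 8.7 for EGTA at 12 and 24 h and 9.3 to 10 elsewhere. Signals below are log2(deposited intensity + 16) after quantile normalisation between arrays. Differences carry the standard error (SE) of limma's fit and a p-value adjusted by Benjamini-Hochberg over all genes tested, with 0.05 as the threshold. The 3 conditions stood in as replicates for LPS effects and the 5 times for condition effects, so p-values measure only the spread between these arrays.

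As a group, the mitochondrial ribosomal protein transcripts were lower in the first 6 h of LPS than in unstimulated cells and moved back up afterwards. At 2 h, 33 of 74 were lower and 2 higher by limma's test (24.9% of all 7058 genes tested were lower and 16.4% higher), and the median member differed from unstimulated cells by -0.25 against -0.09 for all genes. At 4 h, 32 were lower and 2 higher (35.3% and 25.5% of all genes), and at 6 h 31 were lower and 6 higher (33.9% and 26.1%). At 12 h the counts were 22 lower and 10 higher (29.5% and 27.1%). At 24 h, 19 were higher and 10 lower (25.7% and 13.5% of members, against 26.5% and 25.8% of all genes). The share called higher was thus near that of all genes, and only the share called lower was below it. The median member was at 0.07 against 0.01 for all genes. Over the mean of the 5 times, 32 were lower and 6 higher (34.7% and 27.3% of all genes), so the share of members called lower was above that of all genes and the share called higher was below it.

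The signs on single arrays showed the same course. At 2 h, 48 members (64.9%) were below their unstimulated value in all 3 conditions, against 40.8% of all genes, and 7 (9.46%) were above it in all 3, against 24.5%. At 24 h, 15 members (20.3%) were below in all 3 conditions, against 31.9% of all genes, and 27 (36.5%) were above in all 3, against 33.8%. The mean of the 3 conditions reached its highest value at 24 h for 33 members and without LPS for 27, and its lowest at 2, 4 or 6 h for 25, 15 and 16 members. Of the 74 members, 22 were called lower at each of 2, 4 and 6 h, and of these 14 were not called at 24 h, 7 were still lower and 1, Mrpl35, was higher. At none of the 5 times were 15 members called. These counts of peaks, troughs and repeated calls were not made for all genes, so they set the members apart from no other genes. The comparisons at each time also share the same unstimulated arrays, which makes repeated calls likelier.

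The scaling of the arrays set the level against which LPS was read. The median of all genes for the mean LPS effect was -0.05 after quantile normalisation, 0.09 after centring each array on its median and -0.32 with no further scaling, and the members called lower and higher were 32 and 6, 15 and 13, and 52 and 2. At 24 h the 3 scalings gave 10 lower and 19 higher, 5 and 20, and 25 and 5. At 2 h they gave 33 and 2, 10 and 7, and 51 and 0, and at 12 h 22 and 10, 9 and 12, and 27 and 3. Relative to the median gene, the median member was at -0.16, -0.14 and -0.14 at 2 h, at -0.08 for the mean of the times and at 0.05 at 24 h under each scaling. Directions below are therefore relative to the bulk of genes. Called the same way under all 3 scalings for the mean LPS effect were 2 higher members, Mrps6 and Mrpl52, and 15 lower ones. Mrpl52 was above its unstimulated value on 12 of 15 LPS arrays, and in wild-type cells it was below it at 2, 4 and 6 h.

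**Figure D1:**
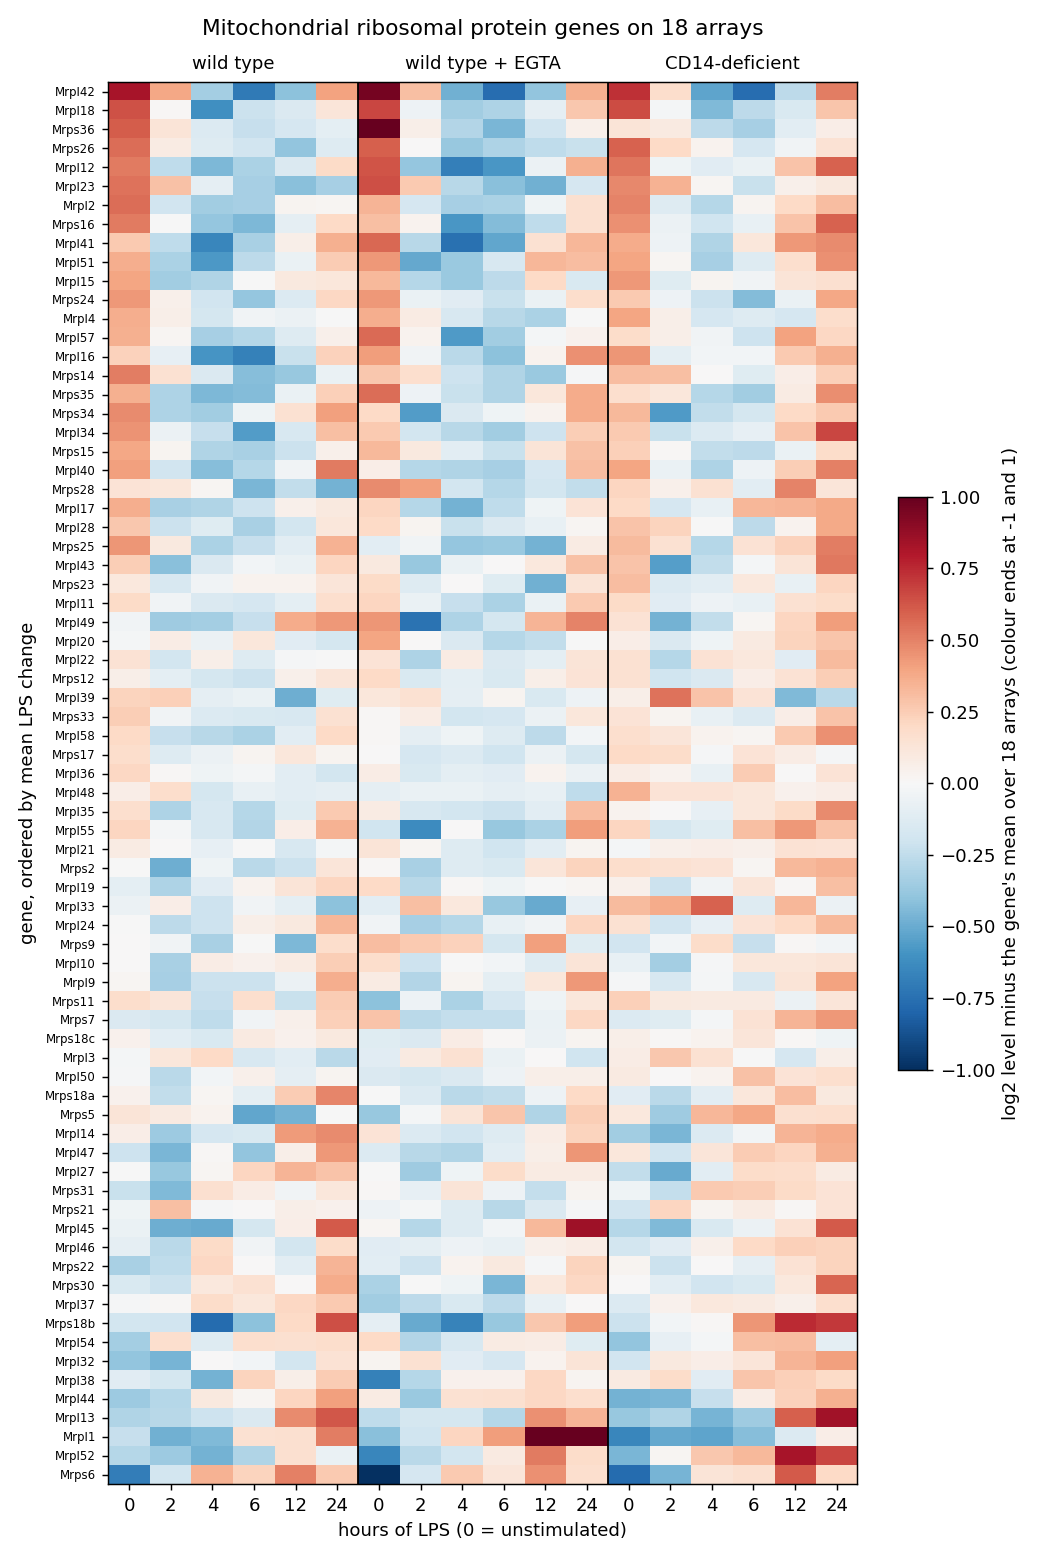
Heat map of the 74 genes (rows, ordered by mean LPS effect) on the 18 arrays (columns, 0 to 24 h within each condition), coloured by log2 signal minus the gene's own mean, with the colour scale ending at 1 in either direction. Red is above and blue below the gene's mean: many rows are red without LPS or at 24 h and blue at 2 to 6 h, while Mrps6 is blue without LPS.

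**Figure D2:**
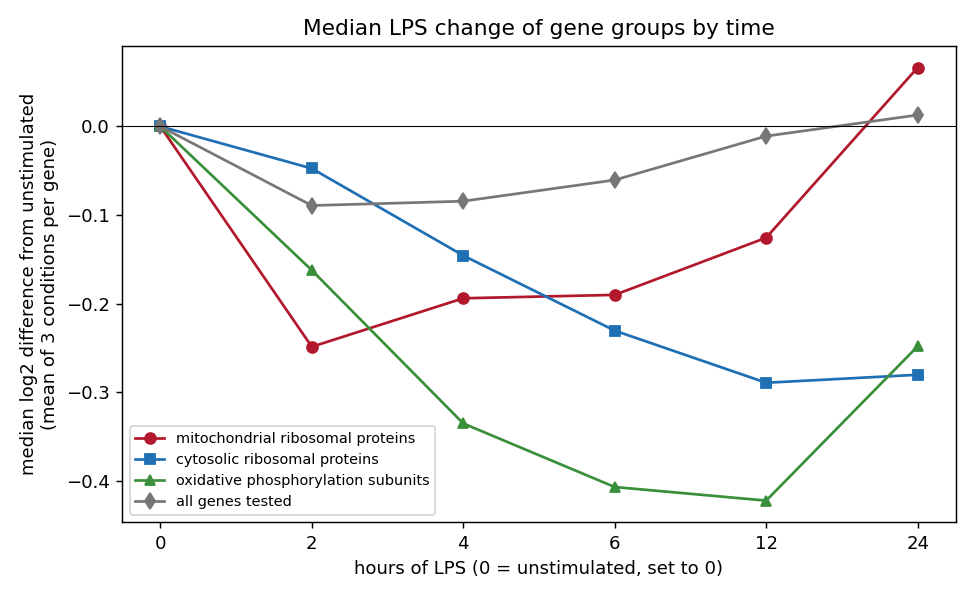
Median log2 difference from unstimulated cells, as the mean of the 3 conditions per gene (vertical axis), at 2, 4, 6, 12 and 24 h of LPS. The horizontal axis has times evenly spaced and not to scale, with unstimulated cells set to 0. Lines are mitochondrial ribosomal proteins, cytosolic ribosomal proteins, oxidative phosphorylation subunits and all genes. The mitochondrial ribosomal line is at -0.25 at 2 h and 0.07 at 24 h. Single conditions are not drawn: in wild-type cells the mitochondrial ribosomal median went from -0.27 at 2 h to 0.01 at 24 h, and in CD14-deficient cells from -0.15 to 0.15.

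Promoter sequence was read for the members that follow from RefSeq windows on GRCm38.p6, each reaching from 250 bases before to 50 bases after a transcript start, and 65 members matched with 71 windows. Capitals mark matches, on either strand, to the letters GCATGCGC (NRF1), CCGGAAG (GABP), AAGATGGC (YY1), GGGGCGGGG (SP1) or CACGTG (E-box). The 250 bases before the start are shown for 4 members on which the results turn: Mrps6, which rose most under LPS (chr16:92058086-92058335, plus strand, SP1 letters), Mrpl18, which was lower at all 5 times (chr17:12916092-12916341, minus strand, GABP letters), and the pair called higher in CD14-deficient cells under every scaling, Mrpl52 (chr14:54426659-54426908, plus strand, GABP letters on the opposite strand) and Mrps18b (chr17:35916441-35916690, minus strand, NRF1 letters and, on the opposite strand, SP1 letters).
Mrps6: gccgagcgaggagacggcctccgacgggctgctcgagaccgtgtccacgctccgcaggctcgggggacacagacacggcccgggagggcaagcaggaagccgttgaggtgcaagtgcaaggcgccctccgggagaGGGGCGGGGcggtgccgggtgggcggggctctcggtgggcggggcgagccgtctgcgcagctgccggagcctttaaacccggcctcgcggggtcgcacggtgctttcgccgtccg
Mrpl18: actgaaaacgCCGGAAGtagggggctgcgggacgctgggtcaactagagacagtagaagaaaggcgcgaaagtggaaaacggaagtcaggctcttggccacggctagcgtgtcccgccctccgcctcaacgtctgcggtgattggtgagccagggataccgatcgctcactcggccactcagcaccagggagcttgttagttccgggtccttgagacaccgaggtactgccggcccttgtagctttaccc
Mrpl52: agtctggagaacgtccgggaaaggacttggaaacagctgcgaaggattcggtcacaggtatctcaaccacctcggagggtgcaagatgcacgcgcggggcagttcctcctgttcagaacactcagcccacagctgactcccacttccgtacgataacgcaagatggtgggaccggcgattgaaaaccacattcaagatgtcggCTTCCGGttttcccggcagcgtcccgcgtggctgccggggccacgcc
Mrps18b: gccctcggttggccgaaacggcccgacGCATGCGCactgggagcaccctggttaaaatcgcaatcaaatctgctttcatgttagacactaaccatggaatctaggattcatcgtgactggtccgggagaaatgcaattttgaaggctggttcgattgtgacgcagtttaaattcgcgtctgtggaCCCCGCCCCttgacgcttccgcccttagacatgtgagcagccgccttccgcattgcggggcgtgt

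A set of 7 members held the YY1 letters in the gene's own orientation within the first 50 transcribed bases, an arrangement picked out after the matches were seen, at positions 12 to 37 counted from the base after the start. It occurred in 7 of 71 member windows (9.86%), in 2.37% of the windows of tested genes and in 0.86% of all windows. The 30 bases around each match are printed because the stretch recurs among the members: Mrpl37 (chr4:107066829-107066858, minus), Mrpl35 (chr6:71823750-71823779, minus), Mrpl42 (chr10:95501911-95501940, minus), Mrps24 (chr11:5707654-5707683, minus), Mrps7 (chr11:115604140-115604169, plus), Mrps18a (chr17:46110997-46111026, plus) and Mrpl49 (chr19:6057728-6057757, minus).
Mrpl37: gcagtccctgcacgggcaAAGATGGCggcg
Mrpl35: ccaccgtaggcaggctgcAAGATGGCggct
Mrpl42: taggacccagattgaagcAAGATGGCgagc
Mrps24: cccgggtcgcgccggcccAAGATGGCgtgg
Mrps7: gaggtcctgacagcggccAAGATGGCtgcc
Mrps18a: cgcggtcaggtgcgttccAAGATGGCggcc
Mrpl49: acactcagttgaggcgccAAGATGGCagca

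Over the whole window and both strands, NRF1 letters were in 11.27% of member windows against 5.63% of the windows of tested genes and 2.71% of all windows. GABP letters were in 33.8% against 19.04% and 8.86%, and YY1 letters in 15.49% against 4.91% and 2.75%. SP1 letters (21.13% against 21.79% and 11.45%) and the E-box (9.86% against 10.35% and 7.15%) were about as frequent in member windows as in those of tested genes. At least 1 of the NRF1, GABP and YY1 words was in 50.7% of member windows, 27.07% of those of tested genes and 13.3% of all. As a description with no test, the median mean LPS effect was -0.16 for the 24 members with GABP letters and -0.09 for the 41 without, -0.12 for the 11 with YY1 letters and -0.14 for the 54 without, and -0.05 for the 8 with NRF1 letters and -0.14 for the 57 without. It was 0.06 for the 13 members with SP1 letters (3 higher and 5 lower) and -0.15 for the 52 without (2 higher and 22 lower). For the E-box the median mean LPS effect was -0.14 for the 5 members with it and -0.12 for the 60 without. From early to late LPS, 1 of the 5 members with an E-box was higher (median 0.04) and 40 of the 60 without it (0.26). This early-late split belongs to several made by motif and comparison, and it rests on 5 members. Among the 7 sequences above, Mrpl42 and Mrps24 were lower over the mean of the LPS times (-1.004 and -0.45) and Mrpl37 higher (0.20). A match says only that these letters are present.

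**Figure D3:**
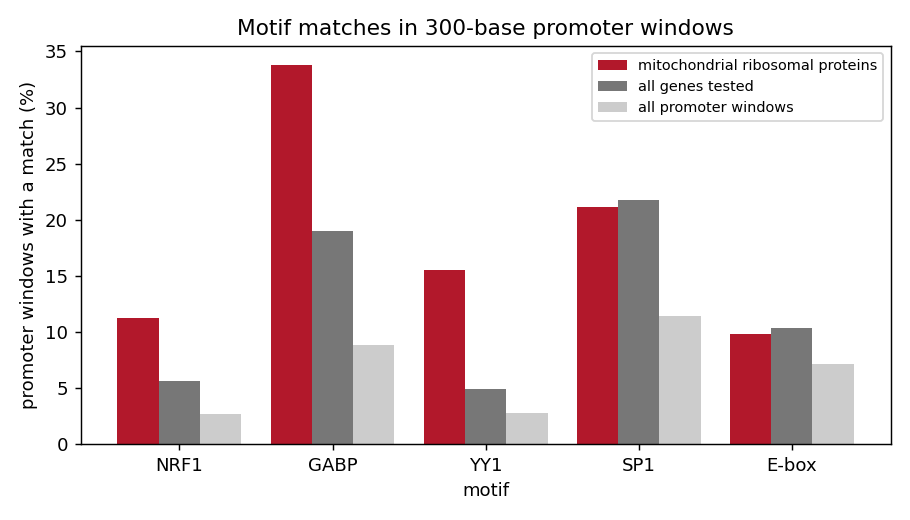
Bars give the share of promoter windows (percent, axis from 0) that hold each motif's letters, for member windows, windows of tested genes and all RefSeq windows. NRF1, GABP and YY1 bars are taller for members than for tested genes (YY1 15.49% against 4.91%), and the SP1 and E-box bars are near level.

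The member that rose most was Mrps6, a small-subunit protein with a bacterial counterpart. Its log2 signal in wild-type cells was 7.74 without LPS and 8.25, 8.78, 8.66, 8.93 and 8.69 at 2, 4, 6, 12 and 24 h. In EGTA-treated cells it was 7.27, then 8.26, 8.69, 8.55, 8.89 and 8.60, and in CD14-deficient cells 7.66, then 7.96, 8.56, 8.60, 9.05 and 8.63. All 15 LPS arrays lay above all 3 unstimulated ones. The mean LPS effect was 1.05 ± 0.09 (SE, adjusted p = 7.14e-08 by limma), a 2.07-fold rise, and Mrps6 was the 1 member called higher at all 5 times. Mrps6 overlaps Slc5a3, the gene of a myo-inositol transporter, and their RefSeq starts lie 14 bases apart. The Slc5a3 probe set was below the array median on all 18 arrays (deposited intensity 14.5 to 61.2), and its part in the result was not tested.

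Mrpl1, the protein of the large subunit's mobile L1 stalk, changed late. Its signal was 7.74 in unstimulated wild-type cells and 7.49, 7.53, 8.12, 8.13 and 8.48 along the times. With EGTA it was 7.55, then 7.77, 8.18, 8.39, 9.10 and 9.33, and without CD14 7.32, then 7.46, 7.44, 7.54, 7.84 and 8.03. On this probe set the EGTA arrays were the highest at each of the 5 times and the CD14-deficient arrays the lowest. At 24 h the LPS effect was 1.08 ± 0.20 (adjusted p = 0.000291, limma), 2.11-fold, whereas at 2 h it was 0.04 ± 0.20 (adjusted p = 0.906). In a limma fit of all probe sets, a second, dimmer one gave 0.62 at 24 h (adjusted p = 0.0592). For CD14-deficient minus wild type under LPS it gave 0.15 (adjusted p = 0.412), against -0.29 (adjusted p = 0.116) on the one read.

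Mrpl13, a large-subunit protein with a bacterial counterpart, was near its starting level until 6 h. Wild-type signals were 10.21 without LPS, 10.23, 10.30 and 10.37 at 2 to 6 h, and 10.98 and 11.13 at 12 and 24 h. EGTA arrays read 10.26, then 10.34, 10.34, 10.22, 10.97 and 10.85, and CD14-deficient arrays 10.13, then 10.21, 10.05, 10.16, 11.11 and 11.35. Every 12 and 24 h array stood above every earlier one. Mrpl13 was 0.91 ± 0.11 higher at 24 h than without LPS (adjusted p = 7.87e-06, limma). Mrpl45, a protein related to the import factor Tim44 through which the ribosome meets the inner membrane, rose by 0.80 ± 0.09 at 24 h (adjusted p = 2.93e-06), Mrpl44, which carries a ribonuclease III fold, by 0.56 ± 0.12 (adjusted p = 0.00128), and Mrps30, which sits in the large subunit despite its name, by 0.54 ± 0.14 (adjusted p = 0.00388). Of these, Mrpl13 and Mrpl45, with Mrpl1, Mrpl52 and Mrps6, were called higher at 24 h under all 3 scalings. The largest falls at 24 h were in Mrpl23 (-0.69, adjusted p = 0.000102 by limma), Mrps26 (-0.65), Mrps36 (-0.62), Mrps28 (-0.47) and Mrpl18 (-0.43). All 5 were called lower under the 3 scalings, and the Mrps28 call was lost for 4 of 18 left-out arrays.

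The member that fell most over the mean of the times was Mrpl42, a large-subunit protein with a mitochondrial number. In wild-type cells its signal went from 10.75 without LPS to 10.31, 9.59, 9.22, 9.52 and 10.32. EGTA arrays read 10.88, then 10.22, 9.44, 9.17, 9.53 and 10.28, and CD14-deficient arrays 10.65, then 10.10, 9.40, 9.17, 9.66 and 10.44. The 3 conditions traced the same trough at 6 h, and no LPS array reached an unstimulated one. At 6 h the effect was -1.58 ± 0.09 (adjusted p = 9.04e-10, limma), a 2.99-fold fall, and at 24 h -0.41 ± 0.09 (adjusted p = 0.000936).

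Mrpl18, whose bacterial counterpart binds a ribosomal RNA of the large subunit, reached its lowest point at 4 h. Wild-type signals were 9.92 without LPS and 9.30, 8.67, 9.07, 9.14 and 9.40 at 2 to 24 h, and at 4 h EGTA and CD14-deficient cells were at their lowest too (8.94 and 8.85). The 4 h effect was -1.12 ± 0.08 (adjusted p = 1.4e-08, limma). Its RefSeq start lies back to back with that of Tcp1, a cytosolic chaperonin subunit, which fell by less (mean LPS effect -0.78 for Mrpl18 and -0.19 for Tcp1, both called). Of 65 members with a window, 22 (33.85%) had one overlapping a window of a gene on the opposite strand, against 20.02% of tested genes. Mrpl46 and Mrps11 are such a pair within the family, and the 8 pairs whose other gene was tested and no member had the same sign in 6 for the mean LPS effect and in 4 from early to late LPS, with no comparison to other gene pairs.

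Among the other members lowered at all 5 times, Mrps26 read 8.97 without LPS in wild-type cells and 8.49, 8.28, 8.21, 8.02 and 8.28 afterwards, and its effect at 24 h was still -0.65 ± 0.10 (adjusted p = 4.14e-05, limma). Mrps36, now assigned to the oxoglutarate dehydrogenase complex and not to the ribosome, differed in its starting levels. It read 10.28 without LPS in wild-type, 10.83 in EGTA and 9.81 in CD14-deficient cells, and 9.22 to 9.81 on the LPS arrays. In CD14-deficient cells the 2 h array (9.77) was 0.04 below the unstimulated one, so the size of the mean fall (-0.75 ± 0.13, adjusted p = 0.000115) varied with the condition, and it was -0.47 without the unstimulated EGTA array and -1.01 without the unstimulated CD14-deficient one. The full set called lower at all 5 times was Mrpl2, Mrpl4, Mrpl15, Mrpl18, Mrpl42, Mrps26 and Mrps36. For Mrpl15 the 24 h call depended on the probe set. In a limma fit of all probe sets, the one read gave -0.35 at 24 h (adjusted p = 0.00784). Others gave -0.08, -0.10 and -0.06 (adjusted p = 0.516, 0.373 and 0.85), and a dim one -0.35 (adjusted p = 0.105).

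The stalk proteins, which recruit translation factors to the large subunit, did not move alike. Mrpl12, which also binds the mitochondrial RNA polymerase, read 9.35 without LPS in wild-type cells and 8.58, 8.39, 8.51, 8.69 and 9.02 afterwards, and its lowest values were at 4 h in all 3 conditions. It was lower by -0.98 ± 0.11 at 4 h (adjusted p = 2.86e-06, limma) and by -0.19 ± 0.11 at 24 h (adjusted p = 0.183). Mrpl11 had a mean LPS effect of -0.24 ± 0.06 (adjusted p = 0.00485), which was -0.05 with centring (adjusted p = 0.636) and was not called without the EGTA condition, and Mrpl10 one of -0.04 ± 0.07 (adjusted p = 0.612). At the decoding centre of the small subunit, Mrps12 had a mean effect of -0.16 ± 0.06 (adjusted p = 0.0374), a call lost for 7 of 18 left-out arrays and with centring (-0.03, adjusted p = 0.764).

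The family of S18 proteins gave 3 courses. Mrps18b in wild-type cells read 8.37 without LPS, 8.37, 7.79 and 8.15 at 2 to 6 h, and 8.76 and 9.21 at 12 and 24 h, and was 0.76 ± 0.16 higher at 24 h (adjusted p = 0.0011, limma). Mrps18a, which lies in the large subunit, was 0.29 ± 0.12 higher at 24 h (adjusted p = 0.0481), with the call lost for 12 of 18 left-out arrays and the difference at -0.01 with no further scaling. Mrps18c was between 9.92 and 10.19 on all 18 arrays, with an LPS effect of 0.04 ± 0.08 at 24 h (adjusted p = 0.727). The mean signals of the array's dimmest members, Mrps5 (6.82), Mrpl38 (7.24) and Mrps11 (7.57), and of its brightest, Mrpl27 (10.81), Mrpl51 (10.56) and Mrpl13 (10.51), depend on the probes and set no order between genes. Mrpl51 was the 1 member whose probe sets were called in opposite directions for the mean LPS effect: the brighter gave -0.48 (adjusted p = 0.000119) and the dimmer 0.31 (adjusted p = 0.0286).

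**Figure D4:**
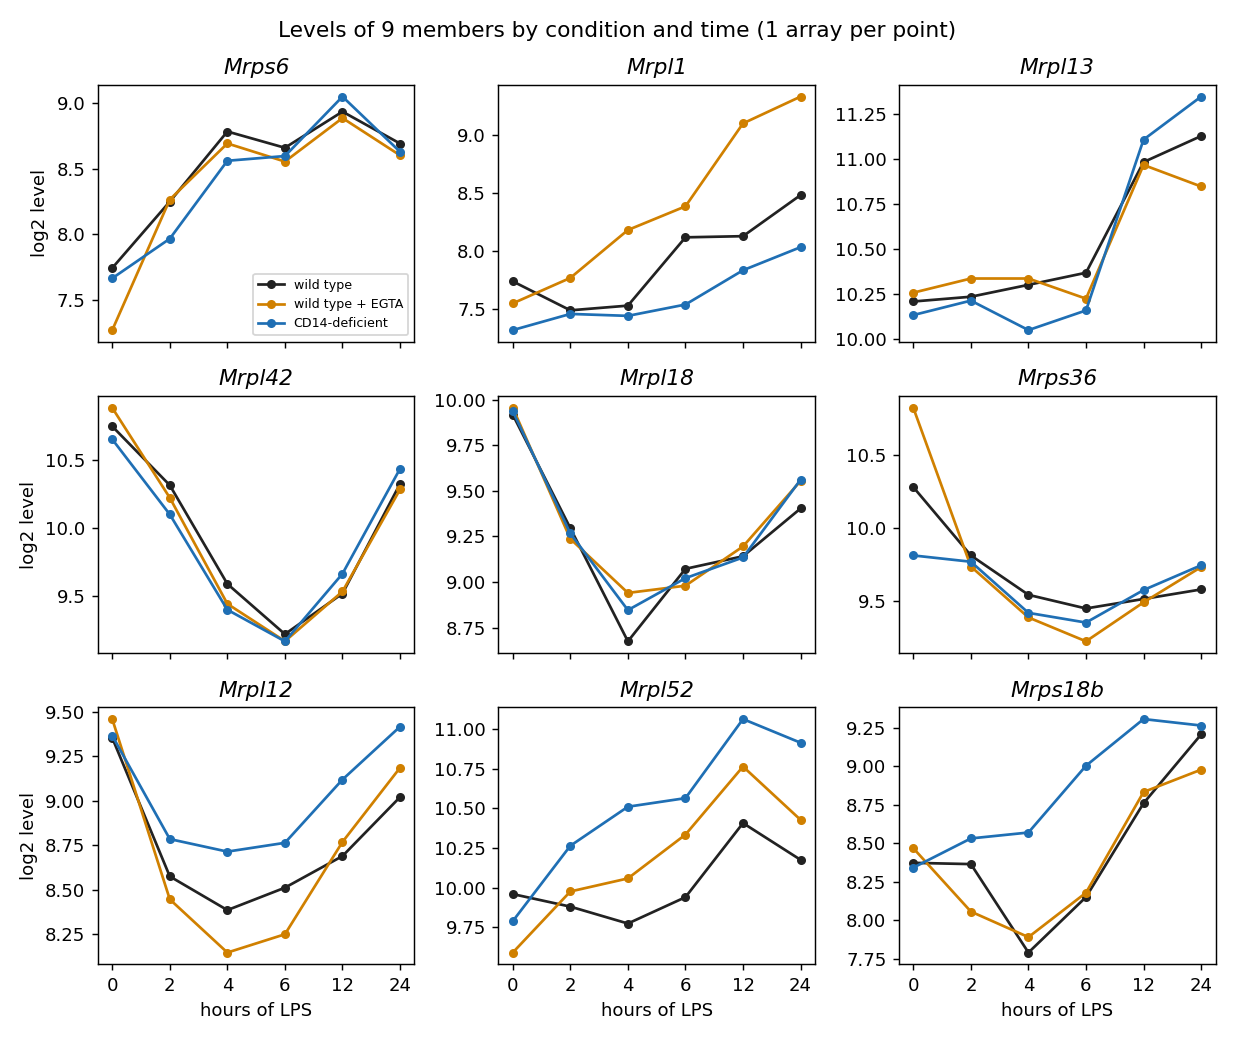
Log2 signal (vertical axes, scaled per panel) against LPS time (0 to 24 h, evenly spaced and not to scale) for 9 members, 1 point per array and 1 line per condition. Mrps6 steps up by 2 to 4 h, Mrpl42 dips to its low at 6 h, Mrpl13 rises after 6 h, and the CD14-deficient line lies above wild type at each LPS time for Mrpl52, Mrpl12 and Mrps18b.

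The turn between early and late LPS did not use the unstimulated arrays. Of 74 members, 46 were higher and 3 lower at 12 and 24 h than at 2, 4 and 6 h (33% and 23.9% of the 6929 genes tested), with a median of 0.25 against 0.05 for all genes. Of the 46, 31 were Mrpl and 15 Mrps genes, and 26 of 42 members numbered after bacterial proteins rose, as did 20 of 32 with mitochondrial numbers. Centring gave 38 higher and 4 lower, no further scaling 46 and 1, and 38 were called higher under all 3. The largest rises were in Mrpl13 (0.82 ± 0.08, adjusted p = 2e-06 by limma), Mrps18b (0.78 ± 0.09, adjusted p = 1.08e-05), Mrpl1 (0.72 ± 0.11, adjusted p = 0.000102), Mrpl49 (0.69 ± 0.07, adjusted p = 5.35e-06) and Mrpl45 (0.68 ± 0.05, adjusted p = 3.84e-07). Mrpl41 (0.64), Mrpl12 (0.53), Mrps7 (0.34) and Mrps12 (0.26) rose too. So did Mrpl11 (0.23) and Mrpl10 (0.17), but not with centring (0.13 with adjusted p = 0.0633, and 0.12 with adjusted p = 0.0618), nor Mrpl11 with the mean of all its probe sets, nor Mrpl10 without the CD14-deficient condition or for 1 left-out array. Of the 32 members below unstimulated cells over the mean of the times, 23 were among the 46, and of all members 62.2% were. Low values at 2, 4 and 6 h lower the first measure and raise the second, so some overlap is built in. The overlap over all genes was not counted.

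The 3 members that fell late were Mrpl39 (-0.38 ± 0.08, adjusted p = 0.00118 by limma), a large-subunit protein resembling a tRNA synthetase, Mrpl3 (-0.20 ± 0.06, adjusted p = 0.0122, not called with no further scaling or without the EGTA condition) and Mrpl23 (-0.16 ± 0.06, adjusted p = 0.0417, lost for 9 of 15 left-out arrays). Mrpl39 in wild-type cells read 10.33, 10.01 and 10.02 at 2 to 6 h and 9.60 and 9.97 later, and in CD14-deficient cells 10.63, 10.37 and 10.23, then 9.65 and 9.82. Both late arrays were below the 3 early ones in these conditions, while with EGTA the ranges met at 10.01 (4 h) and 10.04 (24 h). Step by step, 9 members were higher and 14 lower from 2 to 4 h (21.4% and 21.9% of genes), none was called from 4 to 6 h (0.621% of genes were called, and 10 members were higher and 3 lower at unadjusted p under 0.05), 14 were higher and 1 lower from 6 to 12 h (8.9% and 7.09%), and 18 were higher and 1 lower from 12 to 24 h (10.1% and 9.06%). The 12 to 24 h count fell to 7 higher and 2 lower with centring and to 1 and 1 with no further scaling.

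The apparatus around the mitochondrial ribosome showed a similar late rise. Of other mitoribosomal proteins 4 of 5 tested were higher late and none lower (Chchd1 0.56, Oxa1l 0.40, Gadd45gip1 0.34, Dap3 0.16). Mitochondrial translation factors were higher in 5 of 9, among them Mrrf (0.46), which recycles ribosomes. Mitochondrial tRNA synthetases and amidotransferase subunits were higher in 7 of 10, led by Ears2 (1.29), Qrsl1 (0.65) and Tars2 (0.63), and assembly and rRNA modification factors in 6 of 13, including Ngrn (0.65). In these 4 lists no gene was lower, by limma's adjusted p or at unadjusted p under 0.05, and under each scaling their medians were above that of all genes. Protein import genes were higher in 8 and lower in 2 of 19, with the matrix chaperonin genes Hspe1 (0.63) and Hspd1 (0.38) among the rises. Cytosolic ribosomal proteins went the other way, with none of 38 higher (none at unadjusted p under 0.05 either) and 29 lower (median -0.14), and lower in 35 and 30 with centring and no further scaling. Oxidative phosphorylation subunits were split, 18 higher and 25 lower of 74 (median -0.04), and with centring 5 and 48.

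Against unstimulated cells over the mean of the 5 times, oxidative phosphorylation subunits were lower in 67 of 74 and higher in 2 (median -0.33), and cytosolic ribosomal proteins lower in 30 of 38 and higher in 1 (median -0.19). Centring changed both, to 11 lower and 8 higher and to 2 lower and 13 higher, so the direction of the cytosolic ribosomal proteins turned with the scaling. Among regulators of mitochondrial biogenesis, Myc (-1.68) and Gabpa (-0.47), the DNA-binding subunit of GABP, fell, while Mycn (1.19) and Gabpb1 (0.84), its partner subunit, rose. Of mitochondrial transcription genes, Tefm (0.84), Polrmt (0.39) and Polg (0.34) rose and Tfb2m (-0.90) fell. Genes of cell division fell in 23 of 24 (median -1.30) and granulocyte markers in 11 of 12 (median -0.81), and from early to late LPS they fell in 20 of 24 (-0.74) and 11 of 12 (-1.22). Over the mean of the LPS times, macrophage markers were lower in 7 and higher in 2 of 11 (median -0.39), and dendritic cell markers higher in 5 and lower in 5 of 11. Of 3 plasmacytoid dendritic cell markers, the 2 tested, Bst2 and Tcf4, were higher (median 1.61), and Ly6d was below the array median on every array. The part of these shifts in the members' changes was not tested, and in bulk RNA fewer cells of a type and less RNA per cell cannot be told apart.

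Without CD14, mitochondrial ribosomal protein transcripts under LPS were higher than in wild-type cells for 20 of 74 members and lower for none (17.1% of genes were higher and 12.6% lower, and 2 members were lower at unadjusted p under 0.05). The median member differed by 0.13 and the median gene by 0.04. The share called higher, 13 of 47 Mrpl and 7 of 27 Mrps genes, exceeded that of all genes, and no member was called lower on the probe set read. In a limma fit of all probe sets, another Mrpl13 probe set was called lower (-0.39, adjusted p = 0.0197), against -0.03 on the one read. Of the 20, 17 were higher at all 5 times and the other 3 at 4. The fit uses these times as replicates and calls genes whose difference holds across them, so such signs come with the call. Without LPS the median difference was -0.03, with 34 of 74 positive, and at 2, 4, 6, 12 and 24 h it was 0.04, 0.10, 0.11, 0.18 and 0.13 with 43, 56, 56, 60 and 51 positive. For all genes the median was -0.01 without LPS and 0.03, 0.04, 0.04, 0.05 and 0.02 at these times. The share of all genes that was positive was 47.1% without LPS and 54.8, 55.1, 55.8, 56.3 and 52.5% at these times. At 2 h the member median was thus close to that of all genes. Centring left 10 higher and 1 lower and no further scaling 2 and 1, while the median member stayed 0.09 to 0.10 above the median gene under the 3 scalings.

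Mrpl52, a large-subunit protein with a mitochondrial number, had the largest difference on the probe sets read. Wild-type arrays read 9.96 without LPS and 9.88, 9.77, 9.94, 10.41 and 10.18 with it. CD14-deficient arrays read 9.79, then 10.26, 10.51, 10.57, 11.07 and 10.92, and EGTA arrays 9.59, then 9.98, 10.06, 10.33, 10.77 and 10.43. At each LPS time the order was CD14-deficient, EGTA, wild type, whereas without LPS wild type was the highest. The difference between CD14-deficient and wild-type cells was 0.63 ± 0.06 (adjusted p = 1.62e-05, limma), 1.55-fold. A pair of further Mrpl52 probe sets gave 0.41 (adjusted p = 0.00099) and 0.45 (adjusted p = 0.00015) in a fit of all probe sets, and the mean of all its probe sets, a dim one included, gave 0.34, still called.

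Mrps18b came next, with CD14-deficient signals of 8.34 without LPS and 8.53, 8.57, 9.005, 9.31 and 9.27 with it, against the wild-type values given above. The gap was widest at 6 h (0.85) and narrowest at 24 h (0.06), and the fitted difference was 0.48 ± 0.11 (adjusted p = 0.00471, limma). EGTA arrays followed wild type, at 8.06, 7.89, 8.18, 8.83 and 8.98. Mrps2 (0.38 ± 0.08, adjusted p = 0.00344), a small-subunit protein, and Mrpl16 (0.36 ± 0.09, adjusted p = 0.00995) followed, then Mrps28 (0.35 ± 0.12, adjusted p = 0.0476, lost for 11 of 15 left-out arrays). Mrpl58, a peptidyl-tRNA hydrolase that frees stalled chains, was higher by 0.32 ± 0.08 (adjusted p = 0.00771), Mrpl12 by 0.32 ± 0.07 (adjusted p = 0.0051), Mrpl41 by 0.30 ± 0.07 (adjusted p = 0.00674) and Mrps7 by 0.19 ± 0.06 (adjusted p = 0.027, lost for 6 of 15 left-out arrays and with either other scaling). The Mrpl16 call was lost without the 4, 6 or 12 h arrays. In a limma fit of all probe sets, a second, dimmer Mrps2 probe set gave 0.12 (adjusted p = 0.446). Another Mrpl41 probe set gave 0.35 there (adjusted p = 0.00613), but the Mrpl41 call was lost with the mean of all its probe sets, a dim one included. Mrpl52 and Mrps18b were called under all 3 scalings.

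**Figure D5:**
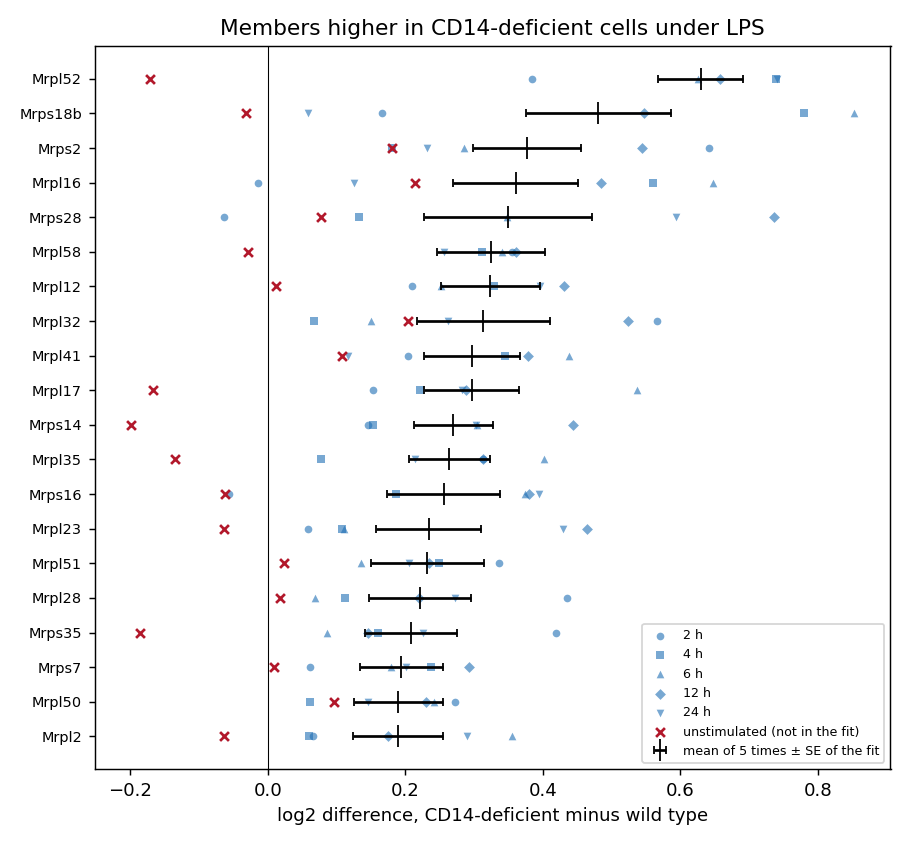
CD14-deficient minus wild-type log2 difference (horizontal axis) for the 20 members called higher (vertical axis), with 1 dot per LPS time, the fitted mean and its SE, and a cross for the unstimulated pair, which was outside the fit. Mrpl52 has all 5 dots between 0.38 and 0.74, and Mrps18b spreads from 0.06 to 0.85.

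The count depended on single arrays: it was 10 without the wild-type 12 h array, 11 without the wild-type 24 h array, 13 without the CD14-deficient 4 h array, 11 without the 12 h and 12 without the 24 h CD14-deficient array. Other groups were higher in CD14-deficient cells as well: 27 of 38 cytosolic ribosomal proteins (1 lower), 26 of 74 oxidative phosphorylation subunits (1 lower), 9 of 19 protein import genes and 16 of 24 cell division genes (median 0.61), with none lower in the last 2 lists, also at unadjusted p under 0.05. Centring and no further scaling left 20 and 3 cytosolic ribosomal proteins, 6 and 0 oxidative phosphorylation subunits, 2 and 1 import genes and 16 and 14 cell division genes higher. Summed cell division signal was 7711 to 19910 on the CD14-deficient LPS arrays and 6128 to 13540 on the wild-type ones, and 27920 and 18260 without LPS. Granulocyte markers were higher in 5 and lower in 2 of 12, summing to 22710 to 36700 against 15950 to 35680, and macrophage markers higher in 1 and lower in 7 of 11, summing to 22100 to 32800 against 30160 to 36130. Dendritic cell markers were higher in 6 and lower in 1 of 11, and mast cell and basophil markers lower in 3 of 4 (median -0.42). The 2 tested of 3 plasmacytoid dendritic cell markers were lower (median -0.49). The part of these groups in the members' difference was not tested.

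EGTA changed few members. Compared with wild-type cells under LPS, 4 were higher and 2 lower (7.39% and 6.23% of all genes, near the members' shares), with a median of -0.03 against 0.01 for all genes. Mrpl1 differed most, by 0.60 ± 0.13 (adjusted p = 0.00901, limma), 1.52-fold, being higher at all 5 times by 0.27 to 0.97. In a limma fit of all probe sets, the second Mrpl1 probe set gave 0.56 (adjusted p = 0.0125). A second Mrps15 probe set gave 0.05 there (adjusted p = 0.658), and Mrps15 was not called with the mean of its probe sets. Mrpl52 (0.28 ± 0.06, adjusted p = 0.0112), Mrpl45 (0.24 ± 0.06, adjusted p = 0.021) and Mrps15 (0.19 ± 0.06, adjusted p = 0.0384) were higher, and Mrpl37 (-0.31 ± 0.07, adjusted p = 0.0101) and Mrps21 (-0.19 ± 0.06, adjusted p = 0.0367) lower, each in the same direction at all 5 times. The times are the replicates of the fit, so shared signs among called members come with the call. Leaving out single arrays ended the calls of Mrps15 for 10, of Mrps21 for 8 and of Mrpl45 for 4 of 15 arrays. Mrpl1 was not called with the mean of its probe sets or without the 12 h arrays, and Mrpl45 and Mrpl52 not without the 4, 6 or 12 h arrays. Mrpl37 was not called with no further scaling (-0.20, adjusted p = 0.254 by limma) or without the 4 or 6 h arrays. Mrpl37 was lower without LPS too, at 7.27 against 7.61 in wild-type cells. Without the 12 and 24 h EGTA arrays none was called higher and 1 lower, and leaving out the 4 or 12 h array of either condition left 2 higher. Of cytosolic ribosomal proteins 17 of 38 were higher and 1 lower (2 and 1 with centring), whereas 3 of 74 oxidative phosphorylation subunits and none of 24 cell division genes were called (1 of the latter at unadjusted p under 0.05).

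Set directly against EGTA-treated cells, CD14-deficient cells had 21 members higher and 1 lower (16.8% and 14.5% of genes), with a median of 0.15 against 0.03. This comparison shares its CD14-deficient arrays with the comparison to wild type. The larger differences were in Mrps18b (0.55 ± 0.11, adjusted p = 0.00209, limma), Mrpl12 (0.40 ± 0.07, adjusted p = 0.00129), Mrps25 (0.39 ± 0.08, adjusted p = 0.00406), Mrpl52 (0.35 ± 0.06, adjusted p = 0.00112) and Mrpl41 (0.35 ± 0.07, adjusted p = 0.00264). The member that was lower was Mrpl1 (-0.89 ± 0.13, adjusted p = 0.000269), 1.86-fold, and its second probe set gave -0.40 (adjusted p = 0.0293). Centring gave 11 higher and 3 lower and no further scaling none higher and 4 lower, Mrpl1 being called lower each time.

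Tests of whether condition effects changed with time, or whether LPS effects differed between conditions, called no member. For the late against early difference in the CD14 effect, 6 members were higher and 1 lower at unadjusted p under 0.05 (smallest adjusted p = 0.23 by limma, with 0.0433% of genes called). For the EGTA effect the counts were 2 and 3, with a smallest adjusted p of 0.207 and 0% of genes called. For the LPS effect in CD14-deficient minus wild-type cells the counts were 7 and 1, with the smallest adjusted p, 0.0694, in Mrpl52 (a difference of 0.80 on the log2 scale), and 0.156% of genes were called. For EGTA they were 4 and 5, with a smallest adjusted p of 0.0559 and 1.67% of genes called, and median centring called 7 members. In these fits the lone unstimulated array of a condition is assumed to vary like the LPS arrays.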

How the data were processed

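Dendritic cell RNA was hybridised to 18 arrays of 22690 probe sets. The authors deposited MAS5 signals, per the submitters' processing notes, which are linear intensities per probe set. Software version, scaling target and genome build: not given in the sources used here. Of the probe sets, 20393 were annotated to 1 gene, 691 to several and 1606 to none. Mrpl30 and Mrpl53 lay only on shared probe sets and were left out. A gene was its highest-mean 1-gene probe set, tested if above the array's median gene on at least 2 fitted arrays. From the deposited values, log2(value + 16) was quantile-normalised and fitted with limma 3.58.1 in R 4.3.3 (lmFit, eBayes with trend, Benjamini-Hochberg), after tests on simulated data. Condition and early-late contrasts used the 15 LPS arrays with time as a block (8 residual degrees of freedom, 6929 genes), and LPS contrasts all 18 with condition as a block (10, 7058 genes). Members named with values came mainly from the 5 largest called rises and falls per comparison, the 3 highest and 3 lowest mean signals, and members known for their role. Not every one is given in every comparison. Members and lists were chosen with earlier results of these data known. Alternatives were other scalings, pseudocounts, filters, probe set rules and left-out arrays. The gene lists were also counted under the other scalings, a choice made after seeing the data. Promoter sequences are RefSeq's (GRCm38.p6).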

Additional observations from a re-analysis of the deposited data

How the results depend on the processing

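Scaling had the widest effect. Median centring gave 13 members higher and 15 lower for the mean LPS effect, 5 lower at 24 h, 10 higher and 1 lower for CD14-deficient minus wild type, 1 lower for EGTA, 11 higher and 3 lower for CD14-deficient minus EGTA, and 7 called for the difference in LPS effect with EGTA (0 after quantile normalisation). With no further scaling the counts were 2 higher and 52 lower for the mean LPS effect, 5 and 25 at 24 h, 1 lower late, 2 and 1 for CD14, 0 lower for EGTA, and 0 higher and 4 lower for CD14-deficient minus EGTA. There Mrps7 had a mean LPS effect of -0.28 (0.00 with quantile normalisation) and Mrps18a -0.01 at 24 h. These scalings differ by construction in the level of the median gene. With no filter 13 members were higher for CD14. Without the EGTA arrays at 12 and 24 h, CD14 gave 1 lower, EGTA 0 higher and 1 lower, and CD14-deficient minus EGTA 11 higher. Leaving out a whole time gave, for CD14, 10 (4 h), 12 (6 h), 9 (12 h) and 11 (24 h) higher and 1 lower (2 h); for EGTA, 1 lower (2 h), 1 higher and 0 lower (4 h and 6 h each), and 0 higher and 1 lower (12 h); and for CD14-deficient minus EGTA, 12 (6 h) and 13 (12 h) higher. Fitting only the conditions compared gave 13 higher for CD14 and 1 lower for EGTA. Without the EGTA condition 1 member was lower late, and without the CD14-deficient condition 12 were higher at 24 h. Leaving out 1 array at a time gave, higher and lower, 6 to 8 and 25 to 32 (mean LPS effect), 13 to 22 and 7 to 13 (24 h), 41 to 47 and 2 to 3 (late), 10 to 20 and 0 to 1 (CD14), 2 to 4 and 1 to 2 (EGTA), and 16 to 25 and 1 to 1 (CD14-deficient minus EGTA); apart from scaling, the cause was not tested. Of 64 calls of named members, 31 held in every setting and left-out array. Arrays are already matched by time or by condition in the fits, and no further pairing by replicate number exists, since each group holds 1 array. With 1 array per condition and time, the number of arrays limits the precision.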
